A study of Mus musculus with 18 samples.

Results

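The immunity-related GTPases (IRG proteins) Tgtp1, Tgtp2, Iigp1, Igtp, Irgm1, Irgm2, Ifi47 and Gm12250 were examined in mouse T cells exposed to vesicles from leukemic or healthy spleens. A gene was represented by the probe sets that carried its symbol on the array, which gave 6 probe sets for 6 of the 8 genes, among 19505 named genes and 22206 probe sets in all. No probe set of the table used here carried the symbol Tgtp1 or Ifi47, and the expression of these 2 genes was not analysed here. The 8 genes were chosen from values of these same arrays, namely their signal in the 6 groups and the difference between vesicle treatments in each T-cell subset. Those values are therefore given as a description, with no test over the members.

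IRG proteins are large GTPases whose genes are switched on by interferon gamma and, for many, by type I interferons, through transcription factors that interferon receptors activate. In mouse cells the effector members gather on the membrane around an intracellular parasite such as Toxoplasma and disrupt it. The regulatory members sit on the cell's own membranes and hold the effectors inactive there. The effectors among the genes measured are Tgtp2 (also called Irgb6), Iigp1 (Irga6) and Gm12250 (Irgb10). The regulators are Irgm1, Irgm2 and Igtp (Irgm3), which differ from effectors in the loop that binds the nucleotide. In T cells Irgm1 is also known for limiting cell death after interferon gamma.

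Spleens of Foxp3 YFP/cre mice, whose reporter marks Foxp3-expressing cells, gave by sorting the 3 subsets studied: Foxp3-negative CD4+ T cells (conventional cells, CD4+ Tconv), T cells positive for CD8 (CD8+ T cells) and Foxp3-positive regulatory T cells (Treg). Culture lasted 24 h in the presence of IL2 at 10 ng/ml. Small extracellular vesicles (sEVs) were added, at 50 ug/ml according to the labels. LME-sEVs (EV-TCL1 in the labels) came from spleens of Eμ-TCL1 mice, in which the TCL1 oncogene acts in B cells and gives a disease like chronic lymphocytic leukemia, and HCME-sEVs (EV-WT) came from healthy control spleens. The methods set vesicle amounts by what each kind of spleen contains, so equal dosing is not settled, and dose and vesicle source cannot be told apart. There were 3 arrays for each subset and treatment, 18 in all, and no group without vesicles is among them. The labels do not say that replicates were separate animals or cultures, so the p-values given for other genes reflect the spread among these samples alone, and that spread may be technical.

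The upstream sequences of the family are shown first, since interferon acts on these genes through short DNA elements and the measured members did not all move alike. RefSeq promoter records (GRCm38.p6) gave 250 bases before the transcription start for the 7 genes used, all members but Iigp1, and for 6 of them the 120 bases nearest the start are printed below, 5′ to 3′ on the strand of the gene. Capitals mark matches to either of 2 patterns, an interferon-stimulated response element (ISRE-like, GAAANNGAA) and a gamma-activated site (GAS-like, TTCNNNGAA), each searched on both strands. The GAS-like pattern reads the same on both strands and was counted once. The windows are chr11:49064213-49064332 and chr11:48992247-48992366 on the minus strand, chr11:58199436-58199555 and chr11:58214857-58214976 on the plus strand, chr11:48871421-48871540 on the minus strand and chr11:58183723-58183842 on the plus strand.
Tgtp2: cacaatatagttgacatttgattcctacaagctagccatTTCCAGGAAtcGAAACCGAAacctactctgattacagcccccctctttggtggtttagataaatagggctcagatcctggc
Tgtp1: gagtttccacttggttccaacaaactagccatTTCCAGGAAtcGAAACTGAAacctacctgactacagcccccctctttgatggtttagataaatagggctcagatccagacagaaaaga
Igtp: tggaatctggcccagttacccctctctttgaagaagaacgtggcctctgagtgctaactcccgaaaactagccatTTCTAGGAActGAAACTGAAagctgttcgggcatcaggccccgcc
Irgm2: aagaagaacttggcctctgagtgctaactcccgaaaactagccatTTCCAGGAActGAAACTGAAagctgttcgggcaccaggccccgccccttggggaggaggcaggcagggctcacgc
Irgm1: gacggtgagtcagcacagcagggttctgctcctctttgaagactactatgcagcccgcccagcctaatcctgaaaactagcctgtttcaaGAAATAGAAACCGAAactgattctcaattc
Gm12250: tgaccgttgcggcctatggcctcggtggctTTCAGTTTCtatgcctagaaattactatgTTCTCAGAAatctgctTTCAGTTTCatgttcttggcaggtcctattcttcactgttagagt

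In Tgtp2, Tgtp1, Igtp and Irgm2 the arrangement was the same, with a GAS-like match, a spacer of 2 bases and then an ISRE-like match. It began 81 bases before the start in Tgtp2, 88 in Tgtp1, 45 in Igtp and 75 in Irgm2. Over 32851 RefSeq windows of 250 bases, 7.13% held an ISRE-like match, 7.02% a GAS-like match and 0.752% both, whereas the arrangement with a spacer of 2 bases was found in 7 windows (0.0213%), 4 of them those of these IRG genes. The other 3 lay before Gm12185, a gene between Irgm1 and Tgtp1, LOC115488470 and Olfr382. The spacer length searched is the one these 4 genes carry, so their own matches were given in advance and the count is a description. Nor are the 4 independent, since the printed windows were identical at 78.1% of aligned positions for Tgtp1 with Tgtp2 and 58% for Igtp with Irgm2. Gm12250 held 2 ISRE-like matches on the opposite strand and 1 GAS-like match between them. Irgm1 held 2 overlapping ISRE-like matches, from 30 to 16 bases before the start, and 0 GAS-like ones. Ifi47 held neither pattern in its 250 bases and is not printed. A match is only a run of letters and says nothing of whether a factor bound there.

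**Figure D1:**
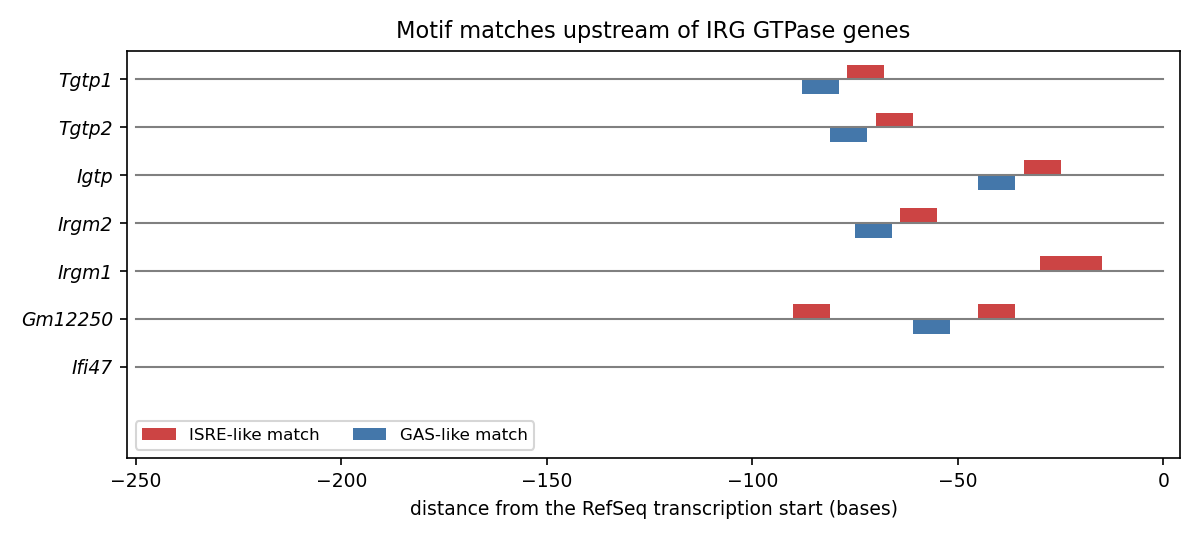
Matches to the ISRE-like (red) and GAS-like (blue) patterns in the 250 bases upstream of 7 IRG genes, against distance from the RefSeq transcription start in bases. Tgtp1, Tgtp2, Igtp and Irgm2 share a GAS-like match followed after 2 bases by an ISRE-like match, and Ifi47 has neither.

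Iigp1 lies on another chromosome, whose records were left out, so a shared chromosome holds only for the 7 genes used. These lie on chromosome 11, where Irgm1, Tgtp1, Tgtp2 and Ifi47 form one cluster and Gm12250, Igtp and Irgm2 another. Between Ifi47 and Gm12250 lie 132 coding genes. Igtp and Irgm2 are direct neighbours, and 0 coding genes lie between them in the RefSeq gene table. The printed windows of Tgtp1 and Tgtp2 were identical at 78.1% of aligned positions. The coding sequences of these 2 genes are known to be nearly the same, so signal of the Tgtp2 probe set can include Tgtp1 transcripts, and the 2 could not be told apart here.

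Before the levels, the arrays themselves need a short account. The sorting marker Cd8b1, one of the CD8 coreceptor chains, had group means of 17.08 and 17.18 on the log2 scale in CD8+ T cells and of 9.01 to 10.25 in the other subsets. Cd8a had means of 13.52 and 13.68 against 7.28 to 7.76, Cd4 had 8.56 and 8.66 in CD8+ T cells against 9.76 to 10.32, and Foxp3 had 0 probe sets under that name and is not analysed here. In Treg the mean of all 6 measured sort markers was higher after LME-sEVs (median 0.39), with Ctla4, an inhibitory receptor of Treg, at 9.77 ± 1.70 on HCME and 12.21 ± 0.13 on LME arrays (SD, n = 3), its treatments apart, Il2ra at 0.23 and Ikzf2 at 0.12 for LME minus HCME. The part of these shifts in the Treg values below was not tested. Background was taken as the 95th percentile of the means of 1429 olfactory, vomeronasal and trace amine receptor probe sets, which was 8.80 in CD4+ Tconv, 8.08 in CD8+ T cells and 7.62 in Treg. In CD4+ Tconv these receptors had a median LME minus HCME of 0.32, the distance from the receptor background of an array to its upper decile of signal was 0.73 to 1.15 on LME arrays against 1.54 to 1.98 on HCME arrays, and 6 of 6 measured T cell markers had lower LME means (median -0.67, with Thy1 called at -1.66). Their part in the CD4+ Tconv values below was not tested. Among Treg arrays an HCME array was the least like the rest, its correlations with them averaging 0.926. Whether subsets were normalized together is not settled, so levels set across subsets carry that limit. In the array titles CD4+ Tconv has a number series of its own, with the HCME arrays numbered before the LME arrays. CD8+ T cells and Treg share another series, in mixed order. The labels do not say what these numbers mean, and their part in the values was not tested. In such bulk samples fewer cells making a transcript and less of it per cell cannot be told apart.

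Tgtp2, an effector first described as a T-cell GTPase, lay far above background in every group, by 4.51 to 7.86 for the group means. In CD4+ Tconv the HCME arrays gave a log2 signal of 14.34, 14.26 and 14.31 and the LME arrays 15.90, 15.44 and 16.08. In CD8+ T cells the HCME arrays gave 15.21, 14.81 and 15.20 and the LME arrays 16.07, 16.41 and 15.34. In Treg the HCME arrays gave 12.92, 12.81 and 10.64 and the LME arrays 14.95, 15.10 and 13.94. All 3 LME arrays lay above all 3 HCME arrays in every subset, by 1.10 in CD4+ Tconv, 0.13 in CD8+ T cells and 1.02 in Treg between the nearest arrays. LME minus HCME was 1.5 (SE 0.21), a 2.83-fold higher signal, in CD4+ Tconv, where Tgtp2 met the calling thresholds of an adjusted p below 0.05 over all probe sets and a log2 fold change above 1. It was 0.87 (SE 0.30) in CD8+ T cells and 2.54 (SE 0.65) in Treg, where it was not called. The CD4+ Tconv call was lost with all 18 arrays in one fit, and when HCME array 1 or 2 or LME array 1 or 3 was left out. Without Treg HCME array 3, the lowest of all, the Treg difference was 1.80.

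Across the 6 groups the mean of Tgtp2 was highest in CD8+ T cells with LME-sEVs, at 15.94 ± 0.55 (SD, n = 3), and next in CD4+ Tconv with LME-sEVs, at 15.81 ± 0.33, and these 2 groups overlapped. It was lowest in Treg with HCME-sEVs, at 12.12 ± 1.29. Treg with LME-sEVs, at 14.66 ± 0.63, overlapped CD4+ Tconv with HCME-sEVs, at 14.30 ± 0.04.

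**Figure D2:**
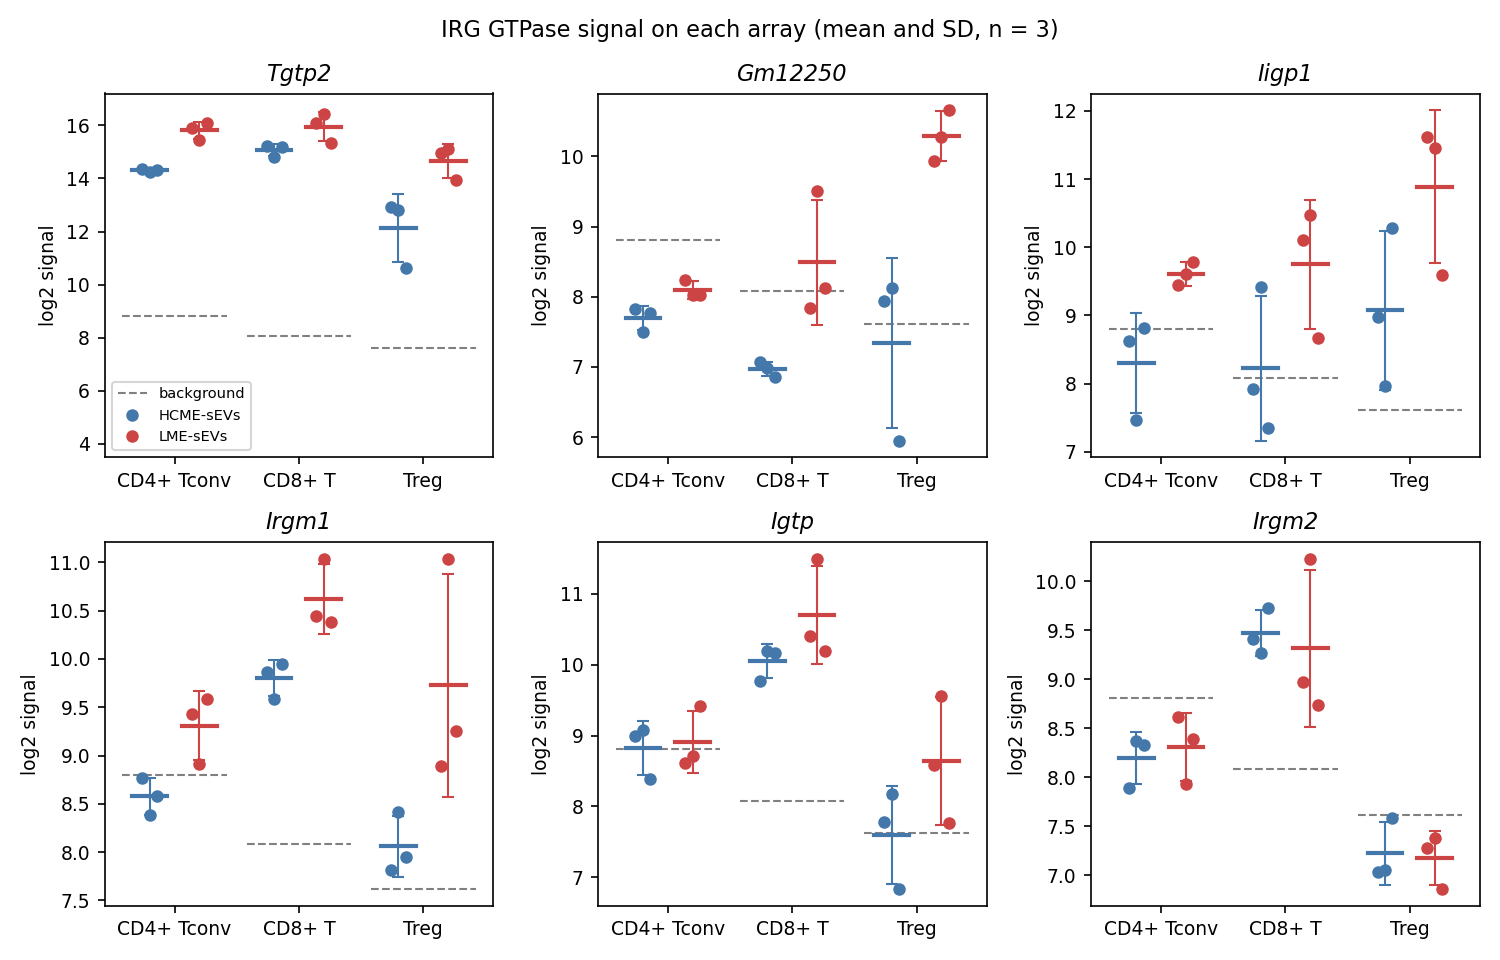
Log2 signal of the 6 measured IRG genes on each array (points), with the group mean (thick line) and SD (bars, n = 3), for HCME-sEVs (blue) and LME-sEVs (red) in the 3 T-cell subsets; dashed lines give the receptor background of each subset. Tgtp2 sits far above background in all groups, Gm12250 separates widely in Treg, from 7.34 to 10.29, and Irgm2 overlaps between treatments in every subset.

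Gm12250, or Irgb10, is an effector that also acts on bacterial membranes. In Treg the HCME arrays gave 7.94, 8.13 and 5.95 and the LME arrays 9.94, 10.27 and 10.66. In CD8+ T cells the HCME arrays gave 7.07, 6.98 and 6.86 and the LME arrays 7.84, 9.51 and 8.12. In CD4+ Tconv the HCME arrays gave 7.82, 7.50 and 7.77 and the LME arrays 8.24, 8.02 and 8.03. The treatments did not overlap in any subset, and in Treg the nearest arrays were 1.81 apart. LME minus HCME was 2.95 (SE 0.58) in Treg, 1.52 (SE 0.43) in CD8+ T cells and 0.40 (SE 0.19) in CD4+ Tconv. In CD4+ Tconv both group means lay under background, and in the other subsets only the LME mean was above it, by 2.67 in Treg and 0.41 in CD8+ T cells, so the size of each difference rests on a control signal not above background. The Treg difference was 2.25 without HCME array 3, and that of CD8+ T cells was 1.01 without LME array 2, the highest of its group.

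Iigp1, the effector Irga6 that coats the parasite's vacuole, had higher LME means in all 3 subsets but scattered widely between replicates. The HCME arrays gave 8.62, 7.47 and 8.82 in CD4+ Tconv, and the LME arrays 9.44, 9.60 and 9.79. For CD8+ T cells the values were 7.92, 9.41 and 7.35 against 10.10, 10.47 and 8.67. In Treg they gave 8.98, 7.96 and 10.28 against 11.61, 11.46 and 9.59. The groups were apart only in CD4+ Tconv, while in CD8+ T cells and Treg the lowest LME array lay under the highest HCME array. LME minus HCME was 1.31 (SE 0.32) in CD4+ Tconv, 1.52 (SE 0.65) in CD8+ T cells and 1.81 (SE 0.73) in Treg. The CD4+ Tconv HCME mean was -0.50 from background, that is under it, and the LME mean 0.81 above. Treg HCME array 3, lowest of its group for Tgtp2 and Gm12250, was the highest of it for Iigp1, and without it the difference was 2.42.

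Among the regulators, Irgm1, which guards the host's own membranes, kept its treatments apart in every subset. In CD4+ Tconv the HCME arrays gave 8.77, 8.38 and 8.58 and the LME arrays 9.43, 8.91 and 9.59. On CD8+ T cell arrays the values were 9.87, 9.59 and 9.95 against 10.44, 11.04 and 10.38. In Treg they gave 7.82, 8.42 and 7.95 against 8.89, 11.04 and 9.25. The nearest arrays of the 2 treatments were 0.14, 0.43 and 0.47 apart in CD4+ Tconv, CD8+ T cells and Treg. LME minus HCME was 0.73 (SE 0.23), 0.82 (SE 0.23) and 1.66 (SE 0.55) in the same order, and the Treg value was 1.01 without LME array 2. In CD4+ Tconv the HCME mean stood at -0.23 from background, under it, and the LME mean 0.51 above.

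Igtp, the regulator Irgm3 of the endoplasmic reticulum and lipid droplets, moved less and overlapped between treatments. In CD4+ Tconv the HCME arrays gave 9.0, 9.08 and 8.38 and the LME arrays 8.61, 8.71 and 9.41. The CD8+ T cell arrays gave 9.77, 10.20 and 10.17 against 10.41, 11.50 and 10.20. In Treg they gave 7.78, 8.17 and 6.83 against 8.59, 9.56 and 7.76. The CD8+ T cell groups met at 10.20, and those of the other subsets overlapped. LME minus HCME was 0.09 (SE 0.27) in CD4+ Tconv, 0.66 (SE 0.36) in CD8+ T cells and 1.04 (SE 0.53) in Treg, and the CD4+ Tconv value ran from -0.16 to 0.24 when single arrays were left out. The Treg HCME mean, 7.59, was just under the background of 7.62. Without LME array 2 the CD8+ T cell value was 0.26 and the Treg value 0.58.

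Irgm2, a regulator of the Golgi, was the member with no clear direction. In CD4+ Tconv the HCME arrays gave 7.89, 8.37 and 8.33 and the LME arrays 8.61, 7.93 and 8.39. The CD8+ T cell arrays gave 9.41, 9.27 and 9.73 against 8.97, 10.23 and 8.74. In Treg they gave 7.03, 7.05 and 7.59 against 7.28, 7.38 and 6.86. The treatments overlapped in all 3 subsets, with LME minus HCME of 0.11 (SE 0.24) in CD4+ Tconv, -0.16 (SE 0.40) in CD8+ T cells and -0.05 (SE 0.26) in Treg. Each of these changed sign in some settings with 1 array left out. Both means lay under background in CD4+ Tconv and Treg, so only CD8+ T cells, where the HCME mean was 1.39 above it, measured Irgm2 well. Irgm2 and its neighbour Igtp share the upstream arrangement shown above and their differences were not tested against each other.

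**Figure D3:**
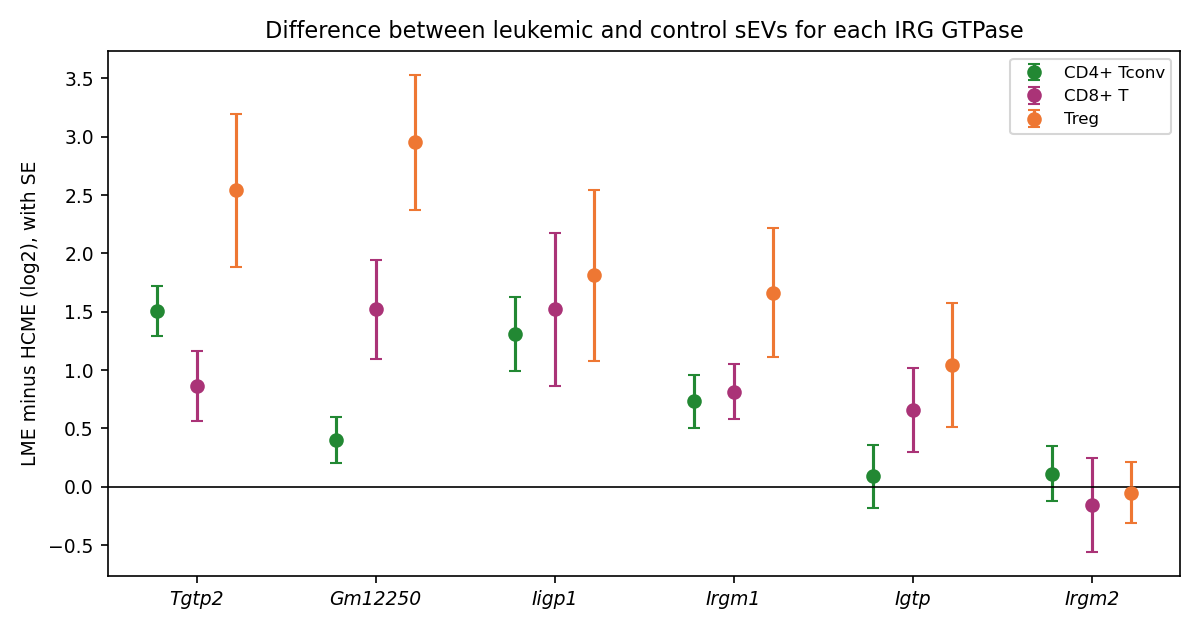
LME minus HCME on the log2 scale with its SE (limma, 3 arrays per group) for each measured IRG gene in CD4+ Tconv (green), CD8+ T cells (purple) and Treg (orange). Treg gives the highest value for Tgtp2, Gm12250, Iigp1, Irgm1 and Igtp, and the Irgm2 values lie from -0.16 to 0.11.

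Counted over the members, 6 of 6 had a higher LME mean in CD4+ Tconv, 5 of 6 in CD8+ T cells and 5 of 6 in Treg, beside 57.2%, 49.4% and 43.4% of all probe sets. All 3 LME arrays lay above all 3 HCME arrays for 4 of 6 members in CD4+ Tconv, 3 of 6 in CD8+ T cells and 3 of 6 in Treg, beside 11.6%, 4.35% and 4.72% of all probe sets. Past both thresholds, 1 member was called higher in CD4+ Tconv (Tgtp2), where 0.0721% of all probe sets were called higher and 0.941% lower. In CD8+ T cells and Treg limma called 0 members and 0% of all probe sets in either direction. The paper, at the same adjusted p and fold change thresholds, reported changed genes in both subsets on its 24 h microarrays. The counts of 0 differ from that result, and the cause was not tested. With the methods' t-test, named there for figures and not for the arrays, the adjusted count was 0 in each subset. Members higher at an unadjusted p below 0.05 numbered 3 in CD4+ Tconv, 3 in CD8+ T cells and 4 in Treg, beside 7.86%, 1.99% and 2.82% of all probe sets. Nothing is read from these counts, since the same contrasts chose the members.

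The mean LME minus HCME over the 6 members was 0.69 in CD4+ Tconv, 0.87 in CD8+ T cells and 1.66 in Treg, with medians of 0.57, 0.84 and 1.74, beside medians of 0.07, -0.00 and -0.06 over all probe sets. With the members averaged on each array, Treg HCME arrays stood at 8.75, 8.76 and 8.21 and LME arrays at 10.21, 10.80 and 9.68. CD8+ T cells stood at 9.88, 10.04 and 9.88 against 10.64, 11.53 and 10.24. CD4+ Tconv stood at 9.41, 9.18 and 9.37 against 10.04, 9.77 and 10.22. The averaged groups were apart in every subset, and LME array 2 was the highest in CD8+ T cells and in Treg. Without it the member mean was 0.51 in CD8+ T cells and 1.37 in Treg. The differences between subsets were not tested.

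Some pairs of members had high correlations within groups and others did not. After subtracting each group's mean, the median Pearson r over the 15 pairs of members was 0.37 on 18 arrays, from -0.30 for Gm12250 with Iigp1 to 0.74 for Tgtp2 with Igtp. Pairs of 6744 other probe sets above background had a median of 0.01, with quartiles of -0.22 and 0.25. Iigp1 had r from -0.30 with Gm12250 to 0.37 with Irgm2, both outside those quartiles, and its other pairs lay within them. Irgm2 had 0.13 with Gm12250 and 0.16 with Tgtp2, within the quartiles. Above them were Irgm2 with Irgm1 (0.38), with Igtp (0.37) and with Iigp1 (0.37). These points share their arrays and any difference in array quality, and the values are a description.

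The genes most like the member mean, by Pearson r over 18 arrays after subtracting subset means, were Epo (0.87), Slamf9 (0.84), Gbp2 (0.84), Ehbp1l1 (0.83), Nampt (0.82), Sidt2 (0.82), Zscan21 (0.82), H2-T22 (0.82), Gbp9 (0.81) and Unkl (0.80). Gbp2 and Gbp9 are guanylate-binding proteins, a second family of interferon-inducible GTPases, and H2-T22 is an MHC class Ib gene. Several of the others were dim, and Epo, the red-cell hormone, had a mean log2 signal of 4.62 and Ehbp1l1 one of 6.05, under the background of every subset. Part of this r comes from the treatment difference that chose the members, and it is given without a p.

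Other genes of the interferon pathway were taken from lists made with earlier results of these data known. Among 8 measured further IRG genes, 5, 6 and 6 had higher LME means in CD4+ Tconv, CD8+ T cells and Treg, with medians of 0.17, 0.06 and 0.37, and 0 were called. Gm4951, an IRG gene, had an LME minus HCME of 0.36 (SE 0.28), 0.26 (SE 0.18) and 1.38 (SE 0.62) in that order, with both means under background in CD4+ Tconv and CD8+ T cells. Gm5431 gave -0.25, 0.35 and 0.97, with its Treg HCME mean of 7.53 under background. Irgq, a quasi-GTPase of the family, gave 0.02, -0.73 and -0.20, all between signals under background.

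The guanylate-binding proteins act beside IRG proteins at parasite vacuoles, and 6 of 7 had higher LME means in each subset, with medians of 0.15, 0.37 and 0.40 and 0 called. Gbp2 went from 6.79 ± 1.55 to 9.30 ± 0.50 (SD, n = 3) in Treg, an LME minus HCME of 2.50 (SE 0.74, limma, adjusted p = 0.800), and its LME arrays all lay above its HCME arrays, but its HCME mean was under the background of 7.62. Gbp2 gave 0.66 (SE 0.48) in CD8+ T cells, with the HCME mean just under background, and 0.08 (SE 0.20) in CD4+ Tconv, where both means were under it. Gbp9 gave 0.29, 0.45 and 0.62 and Gbp4 0.43, 0.36 and 0.47 in CD4+ Tconv, CD8+ T cells and Treg. Gbp9 was under background in CD4+ Tconv and Treg.

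Upstream in the pathway, 6, 11 and 11 of 18 interferon receptor and signalling genes had higher LME means in the same order, with medians of -0.18, 0.15 and 0.20 and 0 called. Ifngr1, the ligand-binding chain of the interferon gamma receptor, went from 10.82 ± 0.98 to 13.23 ± 0.18 (SD, n = 3) in Treg, an LME minus HCME of 2.41 (SE 0.47, limma, adjusted p = 0.756). It was 0.69 (SE 0.22) in CD8+ T cells, and in both subsets its treatments were apart. Irf9, a transcription factor of type I interferon signalling, gave 0.11, 1.44 and 0.21, and Irf1, a factor induced by interferon gamma, -0.03, 0.19 and 1.39. Irf9 was under background in CD4+ Tconv.

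Among 19 interferon gamma targets 8, 12 and 15 had higher LME means, with medians of -0.13, 0.08 and 0.43. The only called member was Ifi30, a thiol reductase of antigen processing, which fell from 9.70 ± 0.27 to 8.30 ± 0.09 in CD4+ Tconv (SD, n = 3), an LME minus HCME of -1.40 (SE 0.21, limma, adjusted p = 0.0330). This call was lost when arrays were centred on their median above background, in one fit over all arrays, and when HCME array 1 or 2 or LME array 1 or 3 was left out. Cxcl9, a chemokine for activated T cells, gave 0.64, 0.54 and 1.60, Cd274, the checkpoint ligand PD-L1, 0.40, -0.33 and 1.43, and the MHC class I gene H2-D1 -0.44, 0.33 and 1.61. Cxcl9 and Cd274 had a mean above background only in Treg after LME-sEVs, and the LME mean of Ifi30 in CD4+ Tconv lay under it.

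The antiviral genes mostly answer type I interferon. Of 37 measured, 16, 22 and 23 had higher LME means, with medians of -0.08, 0.13 and 0.09 and 0 called. Zbp1, a nucleic acid sensor, gave -0.21, 1.59 and 0.88, Eif2ak2, a kinase that halts translation, -0.47, 0.49 and 1.70, and Slfn5 -1.22, 0.06 and -1.02. For the 14 partners that load IRG proteins onto vacuoles, mostly autophagy proteins, 5, 10 and 9 had higher LME means, with medians of -0.06, 0.18 and 0.19 and 0 called. Atg7, an enzyme of autophagosome formation, gave -0.30, 1.10 and 1.71, Gabarapl1 0.08, -0.76 and -0.37, and the autophagy receptor Sqstm1 0.32, 0.41 and 0.54. In CD4+ Tconv both means of Eif2ak2, Atg7, Gabarapl1 and Sqstm1 and the LME mean of Slfn5 were under background, as were the HCME means of Atg7 in CD8+ T cells and Treg and both means of Gabarapl1 in CD8+ T cells.

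The CD4+ Tconv medians of these lists turn with the scaling of the arrays. Centring each array above background gave all probe sets a median of 0.36 in CD4+ Tconv and -0.18 in Treg. With it the CD4+ Tconv medians of signalling genes, interferon gamma targets, antiviral genes and vacuole partners became 0.11, 0.16, 0.21 and 0.23, all under that of all probe sets, and the Treg median of antiviral genes became -0.03. After quantile normalization the CD4+ Tconv median of antiviral genes was 0.02. The guanylate-binding proteins and the further IRG genes kept positive medians in all 3 subsets under both scalings. With centring these were 0.44 and 0.46 in CD4+ Tconv, beside 0.36 for all probe sets. Lists of cell type markers there ran from -0.38 for T cells to 0.60 for dendritic cells, so the sign alone says little.

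**Figure D4:**
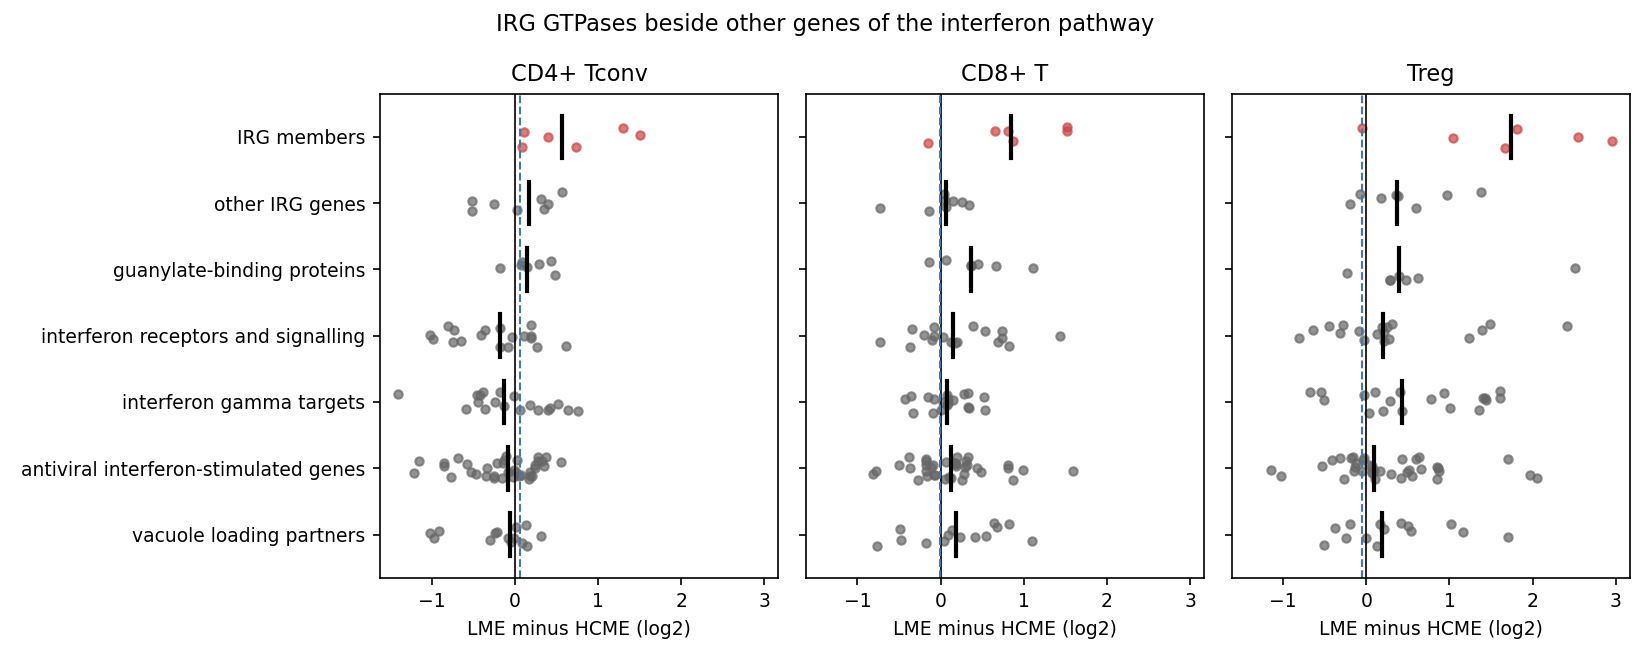
LME minus HCME on the log2 scale for each measured gene (points) of the IRG members (red) and of 6 other interferon pathway lists (grey) in the 3 subsets, with list medians (black bars) and the median of all probe sets (blue dashed line). The member medians are 0.57, 0.84 and 1.74, and those of the other lists lie between -0.18 and 0.43.

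Cells that respond strongly to interferon could also be present in a sort, and their markers were listed for this reason. Of 8 measured monocyte and macrophage markers 1 was above background in CD4+ Tconv (Lyz2) and 0 in CD8+ T cells and Treg, and their summed level, as a mean per array, was 6.97 to 7.10 on HCME and 7.25 to 7.36 on LME arrays of CD4+ Tconv. In CD8+ T cells it was 6.33 to 6.58 against 6.32 to 6.63, and in Treg 6.09 to 6.51 against 6.10 to 6.22. Dendritic cell markers were above background for 0, 1 and 1 of 8 genes and gave medians of LME minus HCME of 0.31, -0.07 and -0.10. B cell markers were above it for 1, 0 and 3 of 9 genes with medians of 0.06, 0.06 and 0.02, those of plasma cells for 2, 2 and 2 of 6 with 0.13, 0.16 and 0.26, and those of NK cells for 0, 2 and 1 of 5 with -0.08, -0.19 and -0.47. In Treg the 9 B cell markers ran from -0.74 for Cd22 to 1.20 for Pax5, and their mean level was 6.43 to 6.55 on HCME and 6.39 to 6.98 on LME arrays. Neutrophil markers gave medians of 0.02, 0.06 and -0.54 over 5 genes and erythroid markers 0.22, -0.05 and -0.00 over 3. Marker medians near 0 changed sign with the scaling in some lists, such as B cells in CD4+ Tconv at -0.05 after quantile normalization. The T cell markers gave -0.67, -0.14 and 0.37 over 6 genes, so that their level in Treg moved in the same direction as the IRG genes, and in CD4+ Tconv in the opposite one. In Treg the 6 plasma cell markers ran from -1.57 for Sdc1 to 1.78 for Jchain, which had both means under background. No marker of another cell type was called in any subset, but in CD8+ T cells and Treg 0 of all probe sets were called. The part of these markers in the IRG values was not tested beyond these levels.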

How the data were processed

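The data were Clariom S mouse arrays, 3 for each T-cell subset and vesicle treatment. The log2 probe set signals are those deposited by the authors, who processed raw scans in the Transcriptome Analysis Console 4.0. Normalization and genome build are not given in the sources used here, and labels and methods name different labelling kits. Groups came from the labels. The number of arrays limits the precision. The platform table gave 1 symbol for 19572 probe sets and none for 2634.

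limma 3.58.1 (lmFit and eBayes, R 4.3.3) was run on the 6 arrays of a subset at a time. A call needed a Benjamini-Hochberg adjusted p below 0.05 over 22206 probe sets together with a log2 fold change beyond 1 in either direction. The fit was tested on simulated data. Members, lists and tests were chosen with earlier results of these data known. Named genes were the members, list genes called in any subset, 3 further genes of each pathway list with the largest mean difference over subsets, the 10 genes most correlated with the member mean, and Cd4, Cd8a, Cd8b1 and Foxp3. Genes named outside this rule (Thy1, Lyz2, Ctla4, Il2ra, Ikzf2, Cd22, Pax5, Sdc1 and Jchain) were chosen after their values were seen. Sequences came from RefSeq (GRCm38.p6). Alternatives were another normalization, centring, a filter on dim probe sets, other limma options, one fit over all arrays, the replicate block, an unpaired t-test, which the study's methods name for its figures rather than for the arrays, and leaving out single arrays.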

Additional observations from a re-analysis of the deposited data

How the results depend on the processing

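The member mean was positive in every setting run, but the same differences chose the members. Trend and robust options, one fit, the replicate block and the t-test leave group means as they are and could not change it. Among settings that kept every measured member, it moved beyond the spread between replicates only in CD4+ Tconv with centring, from 0.69 to 0.98. Centring put each array on its median above background, and moved the median of all probe sets there from 0.07 to 0.36. Without dim probe sets the member mean covered fewer genes in CD4+ Tconv, at 0.91, and in Treg, at 2.00. Leaving out single arrays gave 0.59 to 0.81 in CD4+ Tconv, 0.51 to 1.15 in CD8+ T cells and 1.37 to 1.94 in Treg. The 225 CD4+ Tconv calls became 30 after quantile normalization, 31 with centring, 376 without dim probe sets, 49 with trend and robust options, 475 with array weights, 11 with all 18 arrays in one fit, 2 with the replicate block and 0 by the t-test. The share of lower calls was 92.9%, 73.3% after quantile normalization and 41.9% with centring. Leaving out single arrays gave 0 to 442 calls (0 when HCME array 1 or 2 or LME array 1 was left out, 70 for LME array 3 and 442 for LME array 2). The 1 called member, Tgtp2, was 2 (with Iigp1) without dim probe sets and with array weights, and 0 in one fit, with the replicate block and by the t-test, and 0 to 1 without single arrays (0 when HCME array 1 or 2 or LME array 1 or 3 was left out). In CD4+ Tconv Tgtp2 was 1.80 after quantile normalization, and with centring Tgtp2 was 1.79, Gm12250 0.69 in place of 0.40, Irgm1 1.02 in place of 0.73 and Igtp 0.38 in place of 0.09. The 1 called pathway gene, Ifi30, was lost in the count of 0 with centring, in one fit, with the replicate block and by the t-test, and the count was 5 without dim probe sets, 2 with array weights and 0 to 3 without single arrays. These pathway counts were chosen after seeing the data. In Treg, one fit called 26 probe sets in place of 0, with 1 member (Gm12250) and 1 pathway gene (Ifngr1). The counts in CD8+ T cells were 0 in all settings run. Same-numbered arrays had correlations of deviations from -0.10 to 0.14. With 3 arrays per group this cannot settle whether the numbers pair the samples. The block changed no call in CD8+ T cells or Treg, where the main fit had 0 calls to lose. The cause of these changes was not tested. Both means under background limit Gm12250 in CD4+ Tconv and Irgm2 in CD4+ Tconv and Treg, and an HCME mean under it limits Iigp1 and Irgm1 in CD4+ Tconv, Gm12250 in CD8+ T cells and Treg and Igtp in Treg.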
